A study of Mus musculus with 43 samples.

Results

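Histone deacetylases (HDACs) remove acetyl groups from lysines of histones and other proteins, and butyrate is a textbook inhibitor of some of them. Messenger RNA of 10 HDAC genes was followed in mouse retina after laser-induced choroidal neovascularization (CNV), with and without short-chain fatty acids (SCFA) in the drinking water. The members were chosen by symbol and are all zinc-dependent HDACs: *Hdac1*, *Hdac2*, *Hdac3* and *Hdac8* of class I, *Hdac4*, *Hdac5*, *Hdac7* and *Hdac9* of class IIa, *Hdac6* of class IIb, and *Hdac11* of class IV. All 10 are among the 54532 genes of the count table and among the 18197 genes that passed the filter on low counts.

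All mice were C57BL/6J, 9 weeks old at the laser lesion, and all retinas, controls included, came from lasered eyes, so that no unlesioned retina is compared. Controls drank water without SCFA, and treated mice drank 67.5 mM sodium acetate, 25 mM sodium butyrate and 40 mM sodium propionate from before the lesion until the end. The labels also give doses in g/L, which for butyrate and propionate do not match the doses in mM. The treatment tag of the labels reads control for all 43 libraries, SCFA ones included, so groups were taken from the sample titles and library names, which agree. Males and females were taken on day 3, 7 or 14 after the laser (days post-laser, dpl), which gives 12 groups of 3 to 5 libraries, 19 control and 24 SCFA libraries in all, and 2 retinas of different mice were pooled for each library. Butyrate was never given without acetate and propionate, so an effect of butyrate alone cannot be told apart from that of the mixture.

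HDACs of class I sit in nuclear co-repressor complexes: HDAC1 and HDAC2 in SIN3, NuRD and CoREST, and HDAC3 in NCOR/SMRT. Class IIa enzymes have weak catalytic activity of their own, bind MEF2 transcription factors, and shuttle between nucleus and cytoplasm when CaM kinases, PKD or salt-inducible kinases phosphorylate them and 14-3-3 proteins bind. HDAC6 deacetylates tubulin in the cytoplasm, and HDAC11 is the only member of class IV. Butyrate acts on the enzymes, so the level of their mRNA is not a readout of their inhibition.

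The classes differ at a catalytic-site residue, tyrosine in class I and histidine in class IIa, and this substitution goes with the weak activity of class IIa. The stretches of coding sequence around that codon are shown. They were found by a motif set for each class, which ends in histidine for class IIa and in tyrosine for the others. Each has 39 bases and was read from GENCODE M21 transcripts on GRCm38, and the codon is in capitals. *Hdac3* is not shown.

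Hdac1: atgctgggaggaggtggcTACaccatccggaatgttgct
Hdac2: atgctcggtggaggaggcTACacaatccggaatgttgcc
Hdac8: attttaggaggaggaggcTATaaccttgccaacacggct
Hdac4: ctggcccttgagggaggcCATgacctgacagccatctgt
Hdac5: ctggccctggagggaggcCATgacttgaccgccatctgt
Hdac7: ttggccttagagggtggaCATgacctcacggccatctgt
Hdac9: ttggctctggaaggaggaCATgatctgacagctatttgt
Hdac6, first catalytic domain: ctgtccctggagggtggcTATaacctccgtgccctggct
Hdac6, second catalytic domain: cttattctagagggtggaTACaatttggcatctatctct
Hdac11: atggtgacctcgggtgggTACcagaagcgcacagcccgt

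The search fixed the residue in advance, so the codons follow from it and are not a test. They are CAT, for histidine, in *Hdac4*, *Hdac5*, *Hdac7* and *Hdac9*, and TAC or TAT, for tyrosine, in the others shown. The stretch of *Hdac5* lies at chr11:102196581-102196619 on the minus strand, in exon 26 of its transcript, and that of *Hdac9* at chr12:34107260-34107298 on the minus strand, in exon 22. The stretches of *Hdac1* and *Hdac2* lie in exon 9 of their transcripts, at chr4:129518883-129518921 on the minus strand and chr10:36997039-36997077 on the plus strand. *Hdac9* is also transcribed into a short form, MITR, that lacks the catalytic domain, and counts per gene do not separate it from the full form.

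Library totals ran from 14826957 to 21507527 counts, and values are CPM, which are counts divided by library size after a correction for composition (TMM). Rod photoreceptor markers summed to 49896 CPM or more in every library, as in retina. The library labelled female control 7 dpl replicate 2 held 40.7 CPM of 4 Y-linked transcripts, against 0 in the other 21 libraries labelled female and 136 CPM or more in males. It also held 97.1 CPM of *Xist*, against 147 to 900 CPM in those 21 libraries and at most 0.288 CPM in males. Lens markers took 15.1% of the counts in female SCFA 3 dpl replicate 2, with a sum of 214521 CPM against at most 618 CPM in any other library. The columns of the table run through the groups in a first stretch of 31 libraries and a second stretch of 12, which are called runs of columns here. They were fitted as a block, and 5 of the 12 groups have libraries of the first run only. Between the runs, 5 of the 10 HDAC genes differed, where 52.0% of all genes tested did: in the second run *Hdac7* was higher by 0.30 on the log2 scale, *Hdac9* by 0.26 and *Hdac11* by 0.19, and *Hdac2* was lower with a log2 difference of -0.16 and *Hdac1* with -0.12. Nothing in the labels says that retinas of different libraries came from different litters or days, so p-values measure the spread between these libraries.

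Per length of exon, *Hdac5* was the most abundant of the HDAC mRNAs and *Hdac4* the least. Mean levels over the 43 libraries, in CPM per kb of exons (RPKM), were 29.5 ± 5.32 (SD) for *Hdac5*, 19.6 ± 1.94 for *Hdac2*, 17.3 ± 1.46 for *Hdac1* and 16.8 ± 3.32 for *Hdac11*. They were 13.3 ± 1.76 for *Hdac3*, 9.92 ± 1.55 for *Hdac6* and 4.41 ± 0.925 for *Hdac9*. *Hdac7* (2.35 ± 0.484), *Hdac8* (2.09 ± 0.264) and *Hdac4* (1.73 ± 0.205) came last. Of the neighbours in this order, *Hdac5* exceeded *Hdac2* and *Hdac2* exceeded *Hdac1* in 40 of 43 libraries, *Hdac3* exceeded *Hdac6* in 42, *Hdac6* exceeded *Hdac9* in 43 and *Hdac9* exceeded *Hdac7* in 41. *Hdac8* exceeded *Hdac4* in 36 and *Hdac11* exceeded *Hdac3* in 32. The order of *Hdac1* and *Hdac11*, and of *Hdac7* and *Hdac8*, held in 26 libraries each, so these neighbours did not differ beyond their spread. Exon lengths were those of the union of all annotated exons, which is 15813 bases for *Hdac4* and 14665 for *Hdac9*, and transcripts that use fewer exons are underestimated by this scale.

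**Figure D1:**
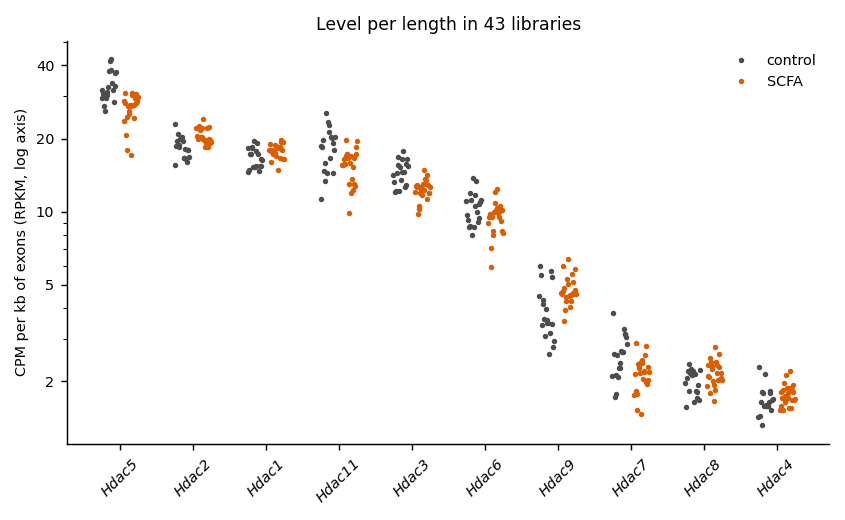
Level of each HDAC mRNA per length in 43 retinal libraries. The y axis is CPM per kb of exons (RPKM) on a log axis, the x axis lists the genes in the order of their means, and each point is 1 library (grey: control, orange: SCFA). *Hdac5* leads with a mean of 29.5 and *Hdac4* is last with 1.73.

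The libraries spread most in *Hdac9*, with a coefficient of variation of 21% of its CPM, *Hdac7* (20.6%), *Hdac11* (19.8%) and *Hdac5* (18%). They spread least in *Hdac1* (8.44%) and *Hdac2* (9.89%), the class I pair that share co-repressor complexes. The smallest count of any member in any library was 106, for *Hdac8*, so that none was near the floor of 3 counts.

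The first question was whether SCFA shifted HDAC mRNA on average over both sexes and all days, which is called the common comparison here. This average was called for 7 of the 10 genes, by small steps and in both directions, where 34.7% of all genes tested were called. *Hdac5* (log2 fold change -0.31), *Hdac11* (-0.28), *Hdac7* (-0.25) and *Hdac3* (-0.21) were lower with SCFA, as were 17.0% of all genes. *Hdac9* (0.27), *Hdac2* (0.16) and *Hdac1* (0.11) were higher, as were 17.7% of all genes. *Hdac8* (0.11 ± 0.0638 SE, adjusted p = 0.1881), *Hdac4* (0.08 ± 0.0568, 0.3423) and *Hdac6* (-0.10 ± 0.0611, 0.2573) did not pass the adjusted p of 0.1. The median over the 10 genes was -0.01, beside 0.00310 over all genes tested. A call means an adjusted p under 0.1 in edgeR's quasi-likelihood test, adjusted over all genes tested. A call of the average does not show a shift in each combination of sex and day. *Hdac1*, *Hdac2*, *Hdac3* and *Hdac5* had the same sign in all 6 combinations. *Hdac9* was positive in 5 of 6, *Hdac7* negative in 5 of 6 and *Hdac11* negative in 4 of 6. In females, *Hdac11* was 0.05 at 3 dpl and 0.07 at 14 dpl, and *Hdac9* was -0.02 and 0.01. *Hdac7* was 0.004 in females at 3 dpl. The folds ran from 0.8061 for *Hdac5* to 1.205 for *Hdac9*, and none reached a 2-fold change. In whole retina, fewer cells of a type and less RNA per cell cannot be told apart.

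In class I, the pair *Hdac1* and *Hdac2* and their relative *Hdac3* moved apart. *Hdac2* was between 69.4 and 102 CPM (median 82.7) in the 19 controls and between 82.2 and 107 CPM (median 89.8) in the 24 SCFA libraries. The ranges overlap, but no SCFA library fell below 82.2 CPM, and the difference was 0.16 ± 0.0351 (SE) on the log2 scale with an adjusted p of 0.001017. *Hdac1* was between 50.2 and 67.5 CPM (median 56.9) in controls and between 51.3 and 68.0 CPM (median 61.8) with SCFA. Nearly the whole ranges overlap, and the log2 difference of 0.11 ± 0.0391 had an adjusted p of 0.02864. *Hdac3*, the catalytic subunit of NCOR/SMRT, was between 49.1 and 72.0 CPM (median 59.2) in controls and between 39.8 and 60.0 CPM (median 50.5) with SCFA. Its lowest libraries were treated ones and its highest were controls, with a log2 difference of -0.21 ± 0.0461 and an adjusted p of 0.000715. In the fit, the sign was negative for *Hdac3* and positive for *Hdac1* and *Hdac2* in all 6 combinations of sex and day. Some of these values lay within 1 standard error of 0. They include *Hdac3* in females at 14 dpl (-0.06 ± 0.1134) and *Hdac2* in males at 14 dpl (0.02 ± 0.0906). *Hdac1* in females at 7 dpl was 0.03 ± 0.0952, with group means of 61.4 CPM in both. Without the library that holds Y-linked transcripts it was -0.08 there. *Hdac8*, which works outside these complexes, was between 7.60 and 11.4 CPM in controls and between 8.04 and 13.4 CPM with SCFA.

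In class IIa, *Hdac5* and *Hdac7* were lower and *Hdac9* was higher with SCFA. *Hdac5* was between 227 and 373 CPM (median 278) in controls and between 150 and 271 CPM (median 242) with SCFA, so that controls above 271 CPM had no treated counterpart. The log2 difference was -0.31 ± 0.0555, a fold of 0.8061, with an adjusted p of 8.194e-05, and the sign was negative in all 6 combinations of sex and day. *Hdac9* was between 38.1 and 88.0 CPM (median 52.4) in controls and between 51.7 and 93.2 CPM (median 67.5) with SCFA. The log2 difference was 0.27 ± 0.0634 with an adjusted p of 0.001610, and 5 of 6 combinations were positive. *Hdac7* was between 11.7 and 25.7 CPM (median 17.5) in controls and between 9.93 and 19.4 CPM (median 14.8) with SCFA, with a log2 difference of -0.25 ± 0.0619 and an adjusted p of 0.002287. *Hdac4*, the remaining class IIa gene, was between 20.9 and 36.3 CPM in controls and between 24.1 and 34.8 CPM with SCFA.

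Of the members outside these classes, *Hdac11* was lower with SCFA and *Hdac6* did not pass the test. *Hdac11* was between 43.6 and 97.9 CPM (median 71.6) in controls and between 38.0 and 76.4 CPM (median 60.9) with SCFA. The log2 difference was -0.28 ± 0.0703 with an adjusted p of 0.002816, negative in 4 of 6 combinations of sex and day. *Hdac6*, the tubulin deacetylase, was between 46.7 and 79.5 CPM (median 61.2) in controls and between 34.5 and 72.1 CPM (median 56.5) with SCFA.

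**Figure D2:**
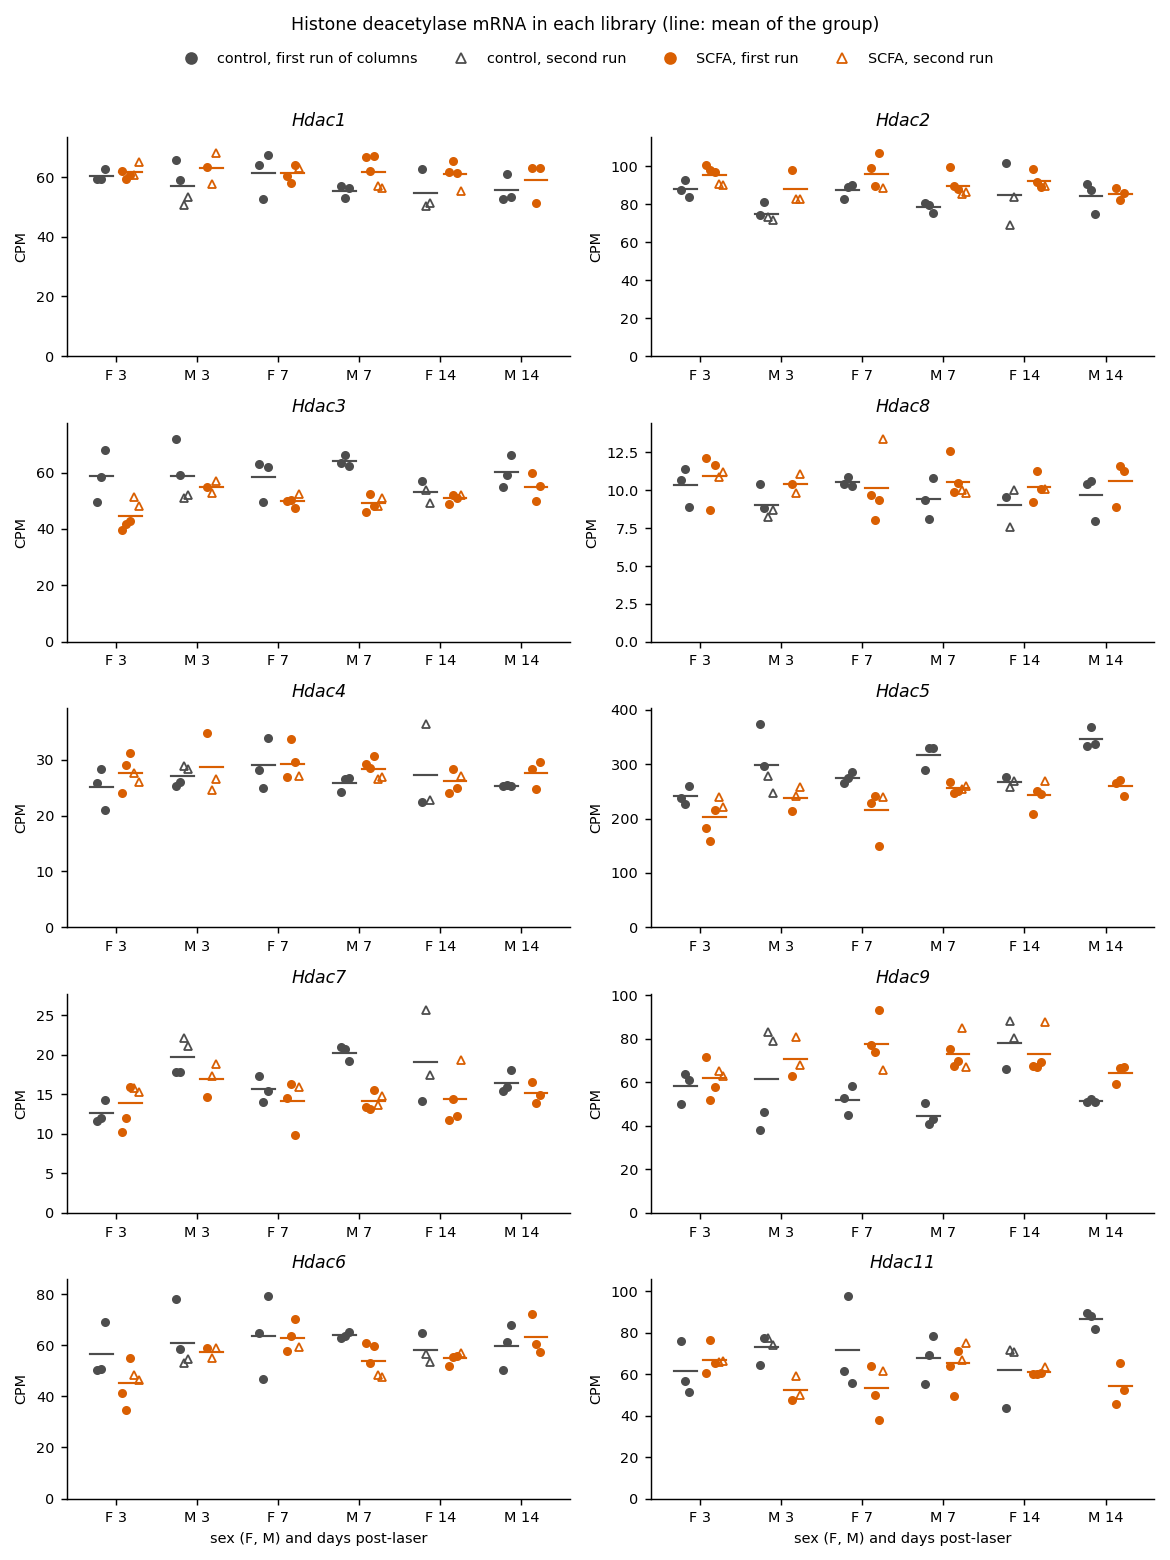
HDAC mRNA in each of the 43 libraries, with 1 panel for each gene. The y axis is CPM from 0, the x axis gives sex (F, M) and days post-laser, points are libraries (grey: control, orange: SCFA, filled: first run of columns, open triangles: second run) and lines are group means. *Hdac5* means are lower with SCFA in all 6 combinations, and the 4 control libraries of the second run stand at 79.1 to 88.0 CPM in *Hdac9*.

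The fold changes were also taken in each run of columns alone, where some groups have 1 library. These are SCFA males and control females, at 3 and 14 dpl in that order, in the first run. In the second run it is SCFA females at 14 dpl. In the first run, *Hdac9* was between 38.1 and 66.0 CPM in 15 controls and between 51.7 and 93.2 CPM in 16 SCFA libraries. In the second run, the 4 controls stood at 79.1 to 88.0 CPM, above every control of the first run, and the 8 SCFA libraries at 63.1 to 87.7 CPM. The first run alone, with all 6 combinations of sex and day, called 6 of the 10 genes where 28.5% of all genes were called: *Hdac5* (-0.40), *Hdac9* (0.38), *Hdac3* (-0.28), *Hdac7* (-0.21), *Hdac4* (0.20) and *Hdac2* (0.13). There *Hdac11* (-0.21, adjusted p = 0.1128) and *Hdac1* (0.06, 0.4297) did not pass. The second run alone allows the comparison in males at 3 dpl and females at 14 dpl only. It called *Hdac11* (-0.31, adjusted p = 0.04414), where 14.5% of all genes were called, and gave -0.01 for *Hdac5*, -0.03 for *Hdac9* and 0.06 for *Hdac3*. These 3 values lie within 1 standard error of 0. A difference between the runs in the response was not tested. The values of the first run average 6 combinations and those of the second fewer, so run, sex and day are mixed between them. In males at 3 dpl and females at 14 dpl both runs hold control and SCFA libraries, but few of each.

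Transcripts rich in G and C were lower with SCFA over the whole table, and the HDAC genes were spread along that gradient. The median log2 fold change fell from 0.193 in the decile of genes with the lowest GC content to -0.15 in the decile with the highest. GC content of the longest transcript was 41.91% for *Hdac2*, 43.01% for *Hdac8* and 45.03% for *Hdac9*, and 57.41% for *Hdac11*, 59.82% for *Hdac5* and 60.19% for *Hdac7*. Across the 10 genes, Pearson's r between GC content and log2 fold change was -0.791, given as a description, since all points come from the same libraries. Across 18180 genes it was -0.368. When the smooth trend of each library with GC content was removed, 5 of the 10 genes were called, where 26.5% of all genes were. *Hdac3* (-0.24, adjusted p = 0.0002986), *Hdac5* (-0.18, 0.00502), *Hdac9* (0.21, 0.008503), *Hdac1* (0.12, 0.02290) and *Hdac11* (-0.18, 0.05294) passed, and *Hdac2* (0.05, 0.3103) and *Hdac7* (-0.12, 0.1681) did not. *Hdac3*, with 47.09% GC, was the member that lay farthest below the genes of like GC content.

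**Figure D3:**
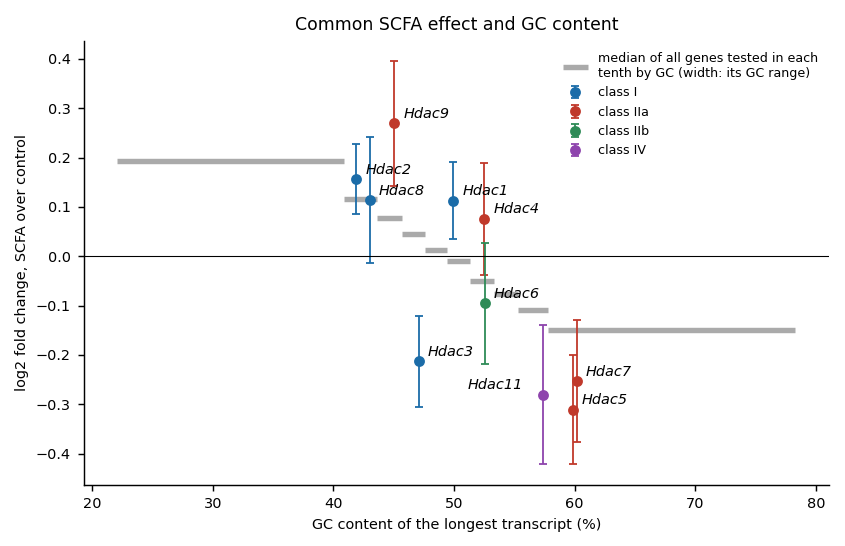
Common SCFA effect and GC content. The x axis is the GC content of the longest transcript in percent, the y axis is the log2 fold change of SCFA over control, points are HDAC genes coloured by class with bars of 2 standard errors to each side, and grey bars are medians of all genes in each decile by GC. *Hdac5*, *Hdac7* and *Hdac11* lie at the GC-rich end below 0, and *Hdac3* lies below the grey bars at 47.09%.

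**Figure D4:**
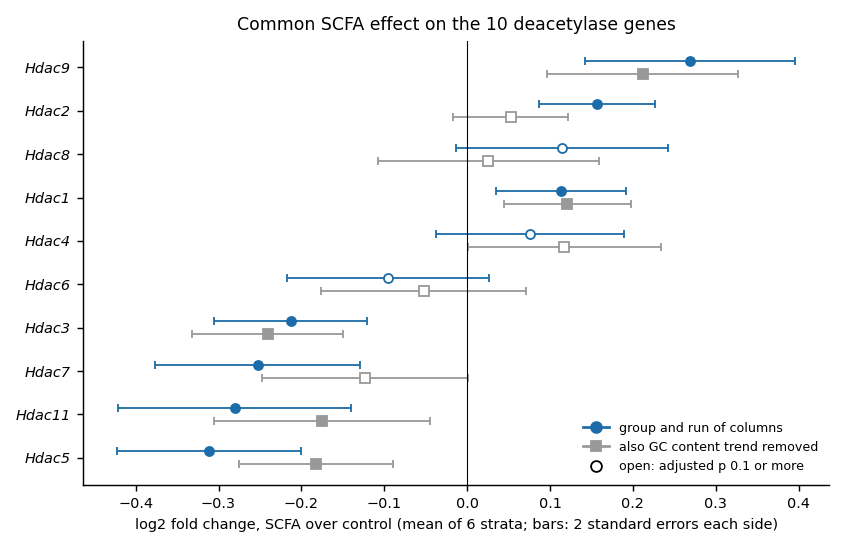
Common SCFA effect on the 10 HDAC genes. The x axis is the log2 fold change of SCFA over control as the mean of 6 combinations of sex and day, with bars of 2 standard errors to each side, blue for the fit with group and run of columns and grey with the GC trend also removed. Filled symbols have an adjusted p under 0.1, and *Hdac2* and *Hdac7* turn from filled to open.

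The promoters of *Hdac5* and *Hdac9* differ in base composition. These genes were picked as the class IIa members with the lowest and the highest common fold change. They are shown as the 250 bases before the RefSeq start on GRCm38.p6, with GC boxes (GGGCGG or CCGCCC, so both strands) in capitals. Of the 10 members, 8 had a promoter entry. Among the others, *Hdac2*, higher with SCFA, has 68.8% GC. *Hdac11* and *Hdac7*, lower with SCFA, have 65.2% and, over the entries of *Hdac7*, 56.4% to 74%. Of the genes not called, *Hdac4* has 65.2%, *Hdac6* 61.2% and *Hdac8* 48.4%. A link between promoter composition and the fold changes was not tested.

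Hdac5, chr11:102230173-102230422, minus strand: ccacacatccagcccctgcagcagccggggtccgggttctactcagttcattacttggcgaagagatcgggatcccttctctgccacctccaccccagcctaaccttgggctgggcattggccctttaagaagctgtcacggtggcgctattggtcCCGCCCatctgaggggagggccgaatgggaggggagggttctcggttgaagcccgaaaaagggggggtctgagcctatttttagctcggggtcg
Hdac9, chr12:34917096-34917345, minus strand: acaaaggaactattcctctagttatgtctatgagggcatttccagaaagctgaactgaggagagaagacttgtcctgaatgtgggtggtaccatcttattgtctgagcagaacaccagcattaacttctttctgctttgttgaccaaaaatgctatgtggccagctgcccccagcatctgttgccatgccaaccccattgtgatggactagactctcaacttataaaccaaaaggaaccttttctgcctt

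The *Hdac5* stretch has 60.8% GC and 12 CpG, and the *Hdac9* stretch 44.4% GC and 0 CpG, beside a median of 52.4% GC over 32851 promoters of the same length. *Hdac5* holds 1 GC box and *Hdac9* none of these letters, and 32.7% of all promoters hold at least 1. *Hdac9* holds 1 TATA box (TATAAA or TTTATA, both strands), as 12.4% of all promoters do. RefSeq gives *Hdac9* another start, whose window at chr12:34528890-34529139 has 43.6% GC, 2 CpG, no GC box and no TATA box. These matches describe letters in these windows only.

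Within single combinations of sex and day, males at 7 dpl gave the most calls, 5 of the 10 genes, where 22.2% of all genes tested were called. *Hdac9* stood at 50.5, 40.7 and 43 CPM in the 3 controls and at 75.5, 67.4, 69.9, 85.1 and 67.1 CPM in the 5 SCFA libraries. The groups did not overlap, and the difference was 0.60 ± 0.1535 on the log2 scale, 1.519-fold, with an adjusted p of 0.006357. *Hdac7* stood at 21, 20.7 and 19.2 CPM in controls and at 13.4, 13.2, 15.6, 13.7 and 14.8 CPM with SCFA. All treated libraries lay below all controls, by -0.64 ± 0.1443 on the log2 scale, with an adjusted p of 0.002547. *Hdac3* stood at 63.5, 66.4 and 62.2 CPM in controls and at 45.9, 52.3, 48.1, 48.3 and 50.9 CPM with SCFA. Here too the groups were separate, with -0.38 ± 0.1079 and an adjusted p of 0.01317.

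In the same males, *Hdac2* stood at 80.5, 79.9 and 75.2 CPM in controls and at 99.6, 89.6, 88.1, 85.4 and 86.7 CPM with SCFA (0.26 ± 0.0836, adjusted p = 0.03195). *Hdac5* stood at 290, 329 and 330 CPM in controls and at 268, 246, 251, 254 and 260 CPM with SCFA (-0.34 ± 0.1296, adjusted p = 0.07369). Neither gene overlapped between the groups. *Hdac6*, which was not called, did not overlap either. It stood at 63.0 to 65.1 CPM in controls and 47.5 to 61.1 CPM with SCFA (-0.20 ± 0.1433, adjusted p = 0.3659). The share of all genes that separate in groups of such sizes was not counted, here or in the other combinations. The calls of *Hdac2* (0.06, adjusted p = 0.7173) and *Hdac5* (-0.12, 0.5594) ended when the GC trend was removed. Without control replicate 3, the adjusted p was 0.1556 for *Hdac2* and 0.2226 for *Hdac5*, and *Hdac5* also missed the threshold without control replicate 2 (0.2020) and without SCFA replicate 3 (0.1313) or 4 (0.1029). *Hdac9*, *Hdac7* and *Hdac3* kept an adjusted p under 0.1 without any 1 of the 8 libraries. All 3 controls belong to the first run of columns and 2 of the 5 treated libraries to the second, and among libraries of the first run the treated *Hdac9* values, 75.5, 67.4 and 69.9 CPM, still lay above all controls. Müller glia markers were higher with SCFA for 3 of 7, *Glul* (1.03, adjusted p = 0.0005626), *Rlbp1* (0.91, 0.003946) and *Aqp4* (0.85, 0.004246), and their sum was between 4281 and 5496 CPM in controls and between 4837 and 9921 CPM with SCFA. Microglia markers summed to between 83.3 and 114 CPM in these controls and between 47.5 and 93.2 CPM with SCFA, with 2 of 8 markers lower, and oligodendrocyte markers ranged from 15 to 356 CPM in controls and from 6.56 to 293 CPM with SCFA. Their part in the HDAC differences was not tested.

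In males at 14 dpl, 2 of the 10 genes were called, where 7.13% of all genes were. *Hdac11* stood at 89.5, 87.8 and 81.9 CPM in controls and at 45.6, 65.3 and 52.3 CPM with SCFA. The groups were separate, with -0.67 ± 0.1832 on the log2 scale, a fold of 0.6297, and an adjusted p of 0.04933. *Hdac5* stood at 333, 368 and 336 CPM in controls and at 266, 271 and 242 CPM with SCFA, also separate, with -0.41 ± 0.1431 and an adjusted p of 0.09688. Leaving out 1 library at a time, *Hdac11* missed the threshold without control replicate 1 (adjusted p = 0.1500) or 2 (0.1858) and without SCFA replicate 1 (0.3145) or 3 (0.1856). *Hdac5* missed it in 5 of 6 cases, without control replicates 1 (0.1854), 2 (0.2854) and 3 (0.1356) and SCFA replicates 1 (0.3199) and 3 (0.2823), and also with the GC trend removed (-0.25, 0.2651). *Hdac9* stood at 51.1, 52.4 and 51.1 CPM in controls and at 59.4, 66.6 and 66.8 CPM with SCFA, separate but with an adjusted p of 0.2634. An edgeR fit of these libraries alone, which are those of the study's table, did call it (0.33 ± 0.0928, adjusted p = 0.0357). That fit called 24.6% of all genes. Pigment epithelium markers summed to between 251 and 514 CPM in these controls and between 125 and 207 CPM with SCFA, and microglia markers to between 70.2 and 73.4 CPM and between 39 and 56.6 CPM. Amacrine and ganglion markers summed to between 1168 and 1367 CPM in controls and between 900 and 1117 CPM with SCFA, and 2 of 9 were lower, *Thy1* (-0.51, adjusted p = 0.06897) and *Slc17a6* (-0.73, 0.09919). Their part was not tested.

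In females, 1 gene was called at 1 day. At 3 dpl, where 8.11% of all genes were called, *Hdac3* stood at 49.4, 58.5 and 68.0 CPM in controls and at 39.8, 41.8, 42.7, 51.2 and 48.1 CPM with SCFA. The lowest control lay within the treated range, and the difference was -0.39 ± 0.1088 with an adjusted p of 0.04014. Without the library rich in lens transcripts, SCFA replicate 2, the difference was the same and the adjusted p was 0.1426. Without that library 0.418% of all genes were called, in place of 8.11%. Without control replicate 3 the difference of *Hdac3* was -0.27 (adjusted p = 0.3105), and without SCFA replicate 1 -0.34 (0.1005). All 7 lens markers were higher with SCFA at 3 dpl, with a median log2 fold change of 8.87, as were 4 of 7 pigment epithelium markers. Of 7 Müller glia markers, *Glul* (0.65, adjusted p = 0.04700) and *Rlbp1* (0.67, 0.06573) were higher, with sums of 4850 to 5568 CPM in controls and 4860 to 8797 CPM with SCFA, and of the oligodendrocyte markers *Mobp* was higher (5.34, 0.09297). The part of these markers was not tested. At 7 dpl, 0 of the 10 genes were called by edgeR, where 0.643% of all genes were, and 4 had an unadjusted p under 0.05, as did 15.8% of all genes. *Hdac9* stood at 52.8, 45.1 and 58.2 CPM in these controls and at 77.2, 73.9, 93.2 and 65.7 CPM with SCFA. The groups were separate, with 0.52 ± 0.1564 and an adjusted p of 0.1245. DESeq2 called 3 genes there, *Hdac9* (0.05175), *Hdac5* (0.08174) and *Hdac11* (0.09937), beside 4.4% of all genes. Without the control library that holds Y-linked transcripts, the log2 fold change of *Hdac9* was 0.42 (edgeR, adjusted p = 0.50) and that of *Hdac11* went from -0.48 to -0.19 (0.7782). At 14 dpl, 0 of 10 were called, where 0% of all genes were, and DESeq2 called 0 as well. An unadjusted p under 0.05 was found for 0 of 10, beside 2.91% of all genes.

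In males at 3 dpl, 0 of 10 genes were called by edgeR and by DESeq2, where 0.0220% of all genes were, with 3 genes at an unadjusted p under 0.05 beside 10.9% of all genes. *Hdac11* stood at 64.3, 77.6, 77.3 and 74.0 CPM in the controls and at 47.4, 59.0 and 50 CPM with SCFA. The groups did not overlap, with -0.53 ± 0.1732 and an adjusted p of 0.2828. *Hdac2* was separate as well, at 71.7 to 81.0 CPM in controls and 82.9 to 98.3 CPM with SCFA, with 0.25 ± 0.0846 and an adjusted p of 0.2888. *Hdac9* split by run in these controls, at 38.1 and 46.4 CPM in the first run and 83.1 and 79.1 CPM in the second.

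The next question was whether males and females responded differently. The interaction of sex and SCFA was called for 0 of the 10 genes and for 0% of all genes at 3, 7 and 14 dpl by edgeR, and DESeq2 also called 0 of the 10. Unadjusted p-values under 0.05 were found for *Hdac11* at 3 dpl (-0.58 ± 0.2385, males minus females in the SCFA response on the log2 scale, adjusted p = 0.3223), *Hdac7* at 7 dpl (-0.42 ± 0.2079, 0.6789) and *Hdac11* at 14 dpl (-0.74 ± 0.2549, 0.4847). That is 1 of 10 on each day, where 12.6%, 7.32% and 10% of all genes had such a p at 3, 7 and 14 dpl. So the calls of *Hdac11* in males at 14 dpl and *Hdac7* in males at 7 dpl are not shown to be particular to males. With 2 standard errors to each side, the interaction of *Hdac9* at 7 dpl lay between -0.35 and 0.51, which leaves room for sizeable differences either way.

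Among controls, *Hdac11* at 14 dpl was the member that differed between the sexes, where 4.65% of all genes were called. It stood at 89.5, 87.8 and 81.9 CPM in males and at 43.6, 71.6 and 70.7 CPM in females, higher in all 3 males, by 0.62 ± 0.1948 with an adjusted p of 0.08429. The call ended without any 1 of the 6 libraries (adjusted p from 0.1065 to 0.3626) and in the fit without the run of columns (0.1973). The females at 71.6 and 70.7 CPM belong to the second run and all males to the first. *Hdac5* was also higher in control males at 14 dpl, at 333 to 368 CPM against 257 to 277 CPM in females, with 0.42 ± 0.1500, and DESeq2 (adjusted p = 0.06268), which called 9.11% of all genes there, but not edgeR called it. At 3 and 7 dpl, 0 of 10 were called between control males and females by edgeR or DESeq2, where 0.0495% and 0.0275% of all genes were, with 1 gene at an unadjusted p under 0.05 on each day, beside 5.17% and 3.81% of all genes. That gene was *Hdac7* in both, higher in males by 0.48 ± 0.1566 and 0.38 ± 0.1597.

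Over time after the lesion, no HDAC mRNA passed the test. From 3 to 7 dpl, 0 of 10 were called in controls and 0 of 10 with SCFA, and from 7 to 14 dpl again 0 and 0, by edgeR and by DESeq2. From 3 to 7 dpl, 1 gene had an unadjusted p under 0.05 in controls (*Hdac7*, beside 6.55% of all genes) and 1 with SCFA (*Hdac9*, beside 8.55%), and from 7 to 14 dpl 1 in controls (*Hdac9*, beside 9.35%) and 0 with SCFA (beside 13.7%). Of all genes, 0% were called in these contrasts except for 0.0659% from 7 to 14 dpl with SCFA. The widest shift was that of *Hdac9* in controls from 7 to 14 dpl, 0.30 ± 0.1202, after -0.23 ± 0.1160 from 3 to 7 dpl. With SCFA *Hdac9* went the other way, by 0.25 ± 0.1020 from 3 to 7 dpl and -0.10 ± 0.1030 from 7 to 14 dpl, and these contrasts share the libraries at 7 dpl.

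Levels of several members went together, or opposite to each other, from library to library. After removal of the mean of each run, Pearson's r over 43 libraries of log2(CPM + 1) was 0.714 for *Hdac3* and *Hdac5*, 0.693 for *Hdac3* and *Hdac6* and 0.673 for *Hdac5* and *Hdac7*. It was -0.760 for *Hdac2* and *Hdac7*, -0.668 for *Hdac2* and *Hdac5* and -0.552 for *Hdac5* and *Hdac9*. These are descriptions, since libraries share depth, base composition and treatment. Among all genes tested, those most like a member were *Ehmt2* (0.912) and *BC034090* (0.883) for *Hdac5*, *Slc27a1* (0.915) and *Vps9d1* (0.903) for *Hdac3*, *Xpo6* (0.951) and *Abcc5* (0.938) for *Hdac6*, and *Mapk8ip1* (0.938) and *Thra* (0.927) for *Hdac11*. For *Hdac9* it was *Bmpr2* (0.883), for *Hdac2* they were *Erg28* (0.871) and *Yeats4* (0.853), and for *Hdac7* *Zmiz2* (0.794) and *Ripor1* (0.781). *Hdac1* (*BC002059*, 0.700, and *Ccdc125*, 0.698), *Hdac4* (*Gm26869*, 0.653, and *Ago1*, 0.618) and *Hdac8* (*CT573017.1*, 0.596, and *Ctxn1*, 0.579) had no close companion.

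Genes for partners of the HDACs also passed the test in the common comparison, where 17.0% of all genes were lower and 17.7% higher. Of 27 co-repressor subunits, 10 were lower and 4 higher with SCFA, led by *Chd3* (-0.31 ± 0.0602, adjusted p = 0.0002200), the NuRD helicase, *Mbd2* (0.17, 0.001300) and *Mbd3* (-0.25, 0.001408), the methyl-CpG-domain subunits of NuRD. Of 14 kinases of class IIa HDACs, 5 were lower and 2 higher, with *Sik1*, a salt-inducible kinase, at -0.84 ± 0.1346 (2.381e-05), *Sik3* at -0.17 (0.0001110) and *Camk2d* at 0.24 (0.001976). Of the 7 14-3-3 genes, 4 were higher and 0 lower, led by *Ywhaz* (0.15, 0.01846), *Ywhaq* (0.13, 0.03497) and *Ywhae* (0.11, 0.06225). Of the 4 MEF2 factors, which class IIa HDACs repress, *Mef2c* was higher (0.29 ± 0.0626, 0.0006671) and *Mef2d* lower (-0.28 ± 0.0622, 0.0008276). Medians of these lists were -0.10 for co-repressors, -0.11 for kinases, 0.11 for 14-3-3 and 0.02 for MEF2 factors, beside 0.00310 over all genes. These lists were counted only in the fit that keeps the GC trend, and the part of GC content in their differences was not tested.

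Other writers, erasers and readers of acetylation were counted in the same comparison, where 34.7% of all genes were called. Of 7 sirtuins, the NAD-dependent deacetylases that butyrate does not inhibit, *Sirt1* was higher (0.30 ± 0.0672, adjusted p = 0.001053), and *Sirt3* (-0.32 ± 0.0696, 0.0007620) and *Sirt6* (-0.16, 0.06166) were lower. Of 10 acetyltransferases, *Kat7* (-0.11, 0.07231) and *Kat5* (-0.17, 0.08226) were lower and 0 were higher. Of the 3 BET readers, *Brd3* was higher (0.11, 0.07979), and *Hdac10*, the other class IIb gene, was not called. Of 6 genes known from cultured cells to rise under HDAC inhibition, *H1f0*, a linker histone, was higher (0.13 ± 0.0438, 0.02782), *Cdkn1a*, the cell cycle inhibitor p21, was lower (-0.75 ± 0.1089, 6.971e-06), and *Gsn*, *Bdnf*, *Hspa1a* and *Hspa1b* were not called. The median of that list was 0.05. Here too the GC trend was not removed.

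Markers of retinal cell types were among the genes called in the common comparison, several lists at a share near the 34.7% of all genes. Lens markers were higher for 5 of 7, with a median log2 fold change of 2.06. This includes female SCFA 3 dpl replicate 2, with a lens sum of 214521 CPM against at most 618 CPM in any other library. The median lens sum was lower with SCFA in males at 7 and 14 dpl and higher in the other combinations. Müller glia and astrocyte markers were higher for 3 of 7, and microglia markers lower for 3 of 8. Rod markers were higher for 2 and lower for 1 of 8, and amacrine and ganglion markers higher for 1 and lower for 3 of 9. Summed microglia markers ranged from 49.9 to 114 CPM (median 72.6) in controls and from 39 to 98.7 CPM (median 62.6) with SCFA, and Müller markers from 4281 to 6913 CPM and from 4110 to 9921 CPM. Rod markers summed to between 66913 and 88748 CPM in controls and between 49896 and 101494 CPM with SCFA. The part of these shifts in the HDAC differences was not tested. Without the library rich in lens transcripts, 7 of the 10 HDAC genes were called in the common comparison, beside 36.7% of all genes, with -0.30 for *Hdac5* and 0.27 for *Hdac9*. Without the library that holds Y-linked transcripts, 8 were called, with *Hdac6* added (-0.13, adjusted p = 0.09487), beside 31.9% of all genes.

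Some counts may include reads of other gene models, since whether strand was used in counting is not given in the sources used here. *Hdac4* shares 22.4% of its exon bases with *Gm26720* on the opposite strand and *Hdac11* shares 15.4% with *Gm44002*, and both of these models were listed at 0 counts in all libraries. *Hdac7* shares 29 bases with *Slc48a1*, which had between 1079 and 2607 counts. *Gm10093*, annotated apart as a copy of *Hdac1*, had between 4 and 15 counts, and how reads that fit both were assigned is not given in the sources used here.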

How the data were processed

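Retinal RNA of 43 libraries, each from 2 pooled retinas, was counted per gene by the authors, who deposited raw counts for 54532 genes without normalization. Per the labels the genome build was mm10 and DESeq2 was used. The aligner, the annotation and the strand setting are not given in the sources used here. Gene names, positions and exon lengths were taken from GENCODE M21 (GRCm38), which names 54409 of the identifiers.

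Counts were filtered with filterByExpr and scaled by TMM, and all 43 libraries were fitted in 1 model with the 12 groups and the run of columns (first 31 or last 12) as covariates in edgeR 4.0.16 (quasi-likelihood test, Benjamini-Hochberg adjustment over 18197 genes, called at an adjusted p under 0.1). SE is the log2 fold change divided by the square root of F. Common effects weight the 6 combinations of sex and day equally. The members, lists and tests were chosen with earlier results of these data known. Every member was described, of each other list at most 3 called genes with the smallest adjusted p were named, and of each member the 2 genes with the highest Pearson r, of which 1 for *Hdac9* is not reported here. On simulated data with 200 changed genes among 17913, edgeR recovered 94% of 2-fold changes in the common comparison and 63% in males at 7 dpl. Of changes by 0.5 on the log2 scale it recovered 68% and 22%. Of 181 genes called in the common comparison, 19 were unchanged ones. The simulation held no difference between runs and no GC trend. Its smallest change, 0.5, exceeds those of the HDAC genes in the common comparison, so these shares do not give the power for them. Alternatives were DESeq2 1.42.0, RLE size factors, other filters and thresholds, other sets of libraries, and the replicate number as a block. Trends with GC content or length (lowess, span 0.3) and fits of 1 run were chosen after seeing the data. Libraries with the same replicate number in different groups did not deviate together (mean r 0.0154). The smallest chi-square per degree of freedom between 2 libraries of a group was 3.59, above sampling noise. Counts of 724 to 1466 for *Hdac1*, and of 106 to 252 for *Hdac8*, show the depth behind the values.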

Additional observations from a re-analysis of the deposited data

Results flagged for a closer look

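Among 50 pairs of a member and a group of 4 or 5 libraries, 4 held a library that stood apart from the rest of its group by Dixon's criterion at 95%, which chance gives in about 5% of groups. *Hdac5* was 150 CPM in female SCFA 7 dpl replicate 3, against 228 to 242 CPM in the other 3 libraries. *Hdac8* was 12.6 CPM in male SCFA 7 dpl replicate 1, against 9.82 to 10.5 CPM in the other 4. In female SCFA 14 dpl replicate 4, *Hdac9* was 87.7 CPM against 67.0 to 69.1 CPM, and *Hdac11* was 63.5 CPM against 60.0 to 60.5 CPM, in the other 3. That library is the only one of its group from the second run of columns. In the fit with the run as a block, *Hdac9* and *Hdac11* were higher in that run. Among SCFA libraries the median of *Hdac9* was 67.5 CPM in each run. Among controls it was 51.1 CPM in the first run and 81.8 CPM in the second. For *Hdac11* the medians of the first and second run were 60.3 and 64.7 CPM with SCFA, and 69.3 and 72.8 CPM in controls. The library of the lowest *Hdac5* belongs to the first run, where it also had the lowest *Hdac7* of all libraries, at 9.93 CPM, and the lowest *Hdac11*, at 38.0 CPM. The causes were not tested.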

How the results depend on the processing

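Counts of the 10 HDAC genes called per comparison that moved by over 1.5 times are given here, with the share of all genes called under the same setting in parentheses. With an added threshold of a log2 fold change over 1, 0 were called in females at 3 dpl, males at 7 dpl, males at 14 dpl, the common comparison and control males against females at 14 dpl. With an adjusted p under 0.05, 1 remained in males at 14 dpl and 0 in that comparison of the sexes. Without a filter on low counts, 0 were called in females at 3 dpl (5.88%), 1 in males at 3 dpl (0.831%), 2 in females at 7 dpl (2.11%), 3 in males at 7 dpl (9.69%), 1 in males at 14 dpl (4.87%) and 1, *Hdac11*, in the interaction at 14 dpl (0.624%). With a minimum of 10 counts in every library, 1 was called in females at 7 dpl (2.39%). Without the run of columns, 0 were called in females at 3 dpl (0.5%), 3 in males at 7 dpl (11.5%), 0 in males at 14 dpl (1.13%) and 0 between control sexes at 14 dpl (2.74%). With the first run only, 2 were called in females at 3 dpl (17.7%), 1 in females at 7 dpl (1.71%) and 1 in males at 14 dpl (3.53%). DESeq2 called 3 in females at 7 dpl (4.4%) and 2 between control sexes at 14 dpl (9.11%), and RLE size factors 1 in males at 14 dpl (6.96%). With the libraries of the study's table, 2 were called in females at 14 dpl (17.7%), 1 between control sexes at 7 dpl (6.59%) and 0 at 14 dpl (0.0376%). With the GC trend removed, 3 were called in males at 7 dpl (15%), 1 in males at 14 dpl (3.61%) and 0 between control sexes at 14 dpl (0.539%), where removal of the length trend also gave 0 (4.13%). The second run alone called 1 in the common comparison (14.5%), with *Hdac9* at -0.0272 and *Hdac3* at 0.0605, the reverse of their signs in all libraries. The cause was not tested. Among smaller moves, *Hdac1* lost its call in the common comparison without the run of columns (adjusted p = 0.1137) and without the filter (0.2481), which left 6, and males at 7 dpl fell to 4 with the first run only and with an adjusted p under 0.05.

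Leaving out 1 library at a time gave 7 to 8 calls in the common comparison, 3 to 5 in males at 7 dpl, 0 to 2 in males at 14 dpl, 0 to 1 in females at 3 dpl, 0 to 2 in females at 7 dpl, and 0 between control sexes at 14 dpl. The range of 0 to 2 in females at 7 dpl includes 2 without control replicate 3 (*Hdac9* and *Hdac11*). With the replicate block, the call between control sexes at 14 dpl was lost (*Hdac11* 0.74, adjusted p = 0.1750), and it changed no other count of calls. The lowest r between same-numbered libraries was -0.4667, and 7 of 43 libraries were closest on average to their own number, so the numbers do not pair libraries. No interaction and no change over time was called under any alternative except the one named. Depth limits *Hdac8* most, whose 106 to 252 counts carry a counting error of 9.71% to 6.3%, beside a coefficient of variation of 12.6%.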
